A study of Rattus norvegicus with 4 samples.

Results

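Hdac3 occupancy of the genome was compared between rat oligodendrocyte precursor cells (OPCs) and differentiating oligodendrocytes labelled d3, by chromatin immunoprecipitation followed by sequencing (ChIP-seq). The comparison rests on the 2 libraries titled Hdac3_OPC and Hdac3_d3, of 4 libraries in all. The other two were made at the same stages with an antibody to p300. The libraries were chosen by title, and reads on autosomes 1 to 20 with a score of at least 80 were counted.

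Both groups came from Sprague Dawley rats. Pups at postnatal day 2 gave the cortices from which precursors were separated by differential detachment, and the labels name no transgene or other manipulation. Growth medium for OPCs was Sato medium with 10 ng/ml PDGF-AA plus 20 ng/ml bFGF, both mitogens. Medium for differentiation was Sato medium to which the thyroid hormone T3 (15 nM) and CNTF (10 ng/ml), a cytokine, were added. The labels do not say how many pups or cultures went into a library, nor what d3 stands for beyond the cell type given. The same Abcam antibody to Hdac3 was used at both stages. Cell identity could not be checked against marker genes, because no expression was measured, and no rn4 gene annotation was used here. Regions are therefore given by position alone, without gene, exon or intron.

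Hdac3 is a class I histone deacetylase. It has little activity alone and works as the catalytic subunit of the NCoR and SMRT corepressor complexes, which are brought to chromatin by nuclear receptors and other transcription factors. Unliganded thyroid hormone receptor is a textbook partner of these complexes, and thyroid hormone, which was in the differentiation medium, releases them. p300 is a histone acetyltransferase and coactivator found at many active enhancers. OPCs divide under PDGF and FGF and become myelin-forming oligodendrocytes when these mitogens are withdrawn and differentiation signals are given.

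The OPC library held 3025850 autosomal reads with a score of at least 80, which was 72.7% of its autosomal reads. The d3 library held 6421863, or 75.1%. For calls and ratios the d3 reads were thinned at random to 3025850, except where the full library or smaller portions are named, so that the average 1 kb bin held 1.18 tags at either stage, a tag being the 5′ end of a read moved 100 bp in the direction of the read. A second set of 3025850 d3 reads, which shared no read with the first, served to measure regions without the tags that had called them. It came from the same library and is not a second culture. With 1 library per stage no difference could be set against a spread between cultures. All intervals are 95% intervals that cover counting error only, and no test between stages was made.

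More short regions were called enriched for Hdac3 at d3 than in OPCs. A 1 kb bin was called enriched where its Poisson tail was below 1e-05 and its count was at least 3-fold over the local background, and adjacent bins were merged. At equal depth 100 regions were called in OPCs and 278 at d3, a ratio of 2.78 (2.20 to 3.53). The second d3 set gave 260 regions. Called bins were 0.00410% of the 2558190 autosomal bins in OPCs and 0.0109% at d3. The regions held 0.0681% of OPC tags (0.0652 to 0.0711%) and 0.135% of d3 tags (0.131 to 0.140%), so nearly all reads lay outside them at both stages. All 20 autosomes had more regions at d3 than in OPCs. The difference in number depended on the score limit: with reads of every score it was 413 against 498 regions, a ratio of 1.21 (1.06 to 1.38). It was also smaller at lower depth. In the smaller portions of tags described below, 60 regions were called in OPCs and 83 at d3.

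The 334 regions called at either stage fell into 3 classes. There were 44 called at both stages, which was 44.0% of the OPC regions and 15.8% of the d3 regions. Another 56 were called in OPCs only and 234 at d3 only, and 327 of the 334 were a single bin. Regions of both stages were tall, with a median of 23 tags in OPCs (9 to 115) and 23 at d3 (9 to 145). Regions called at d3 only were low, with a median of 11 tags at d3 (9 to 23) and 3 in OPCs (0 to 16). Regions called in OPCs only held a median of 10 tags in OPCs (9 to 31) and 2.50 at d3 (0 to 18). The ranges of the classes overlap, and since a call at both stages needs high tags at both, the near-equal medians of that class follow in part from its definition. The second d3 set, which took no part in the calls, held a median of 20.5 tags in that class.

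Of the 334 regions, 135 (40.4%) were higher at d3 and 27 (8.08%) were lower, where higher and lower mean at least 2-fold with an interval that excludes 1. Over all 10211 bins with at least 10 tags over the pair, 3.06% were higher and 1.01% lower. The same tags called the regions and gave these ratios, so the counts describe the calls and nothing more is read from them. Over the 334 regions the log2 ratio (d3 over OPC) had a median of 1.44 (quartiles 0.09 to 2.32), against 0.10 over the bins with at least 10 tags (-0.53 to 0.74). By class it was -0.11 for regions of both stages, 1.95 for d3 only and -1.82 for OPC only. Among the 74 regions with at least 20 tags over the pair it was 0.09, with 8 higher and 1 lower. With reads of every score the median over all regions was -0.023.

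**Figure D1:**
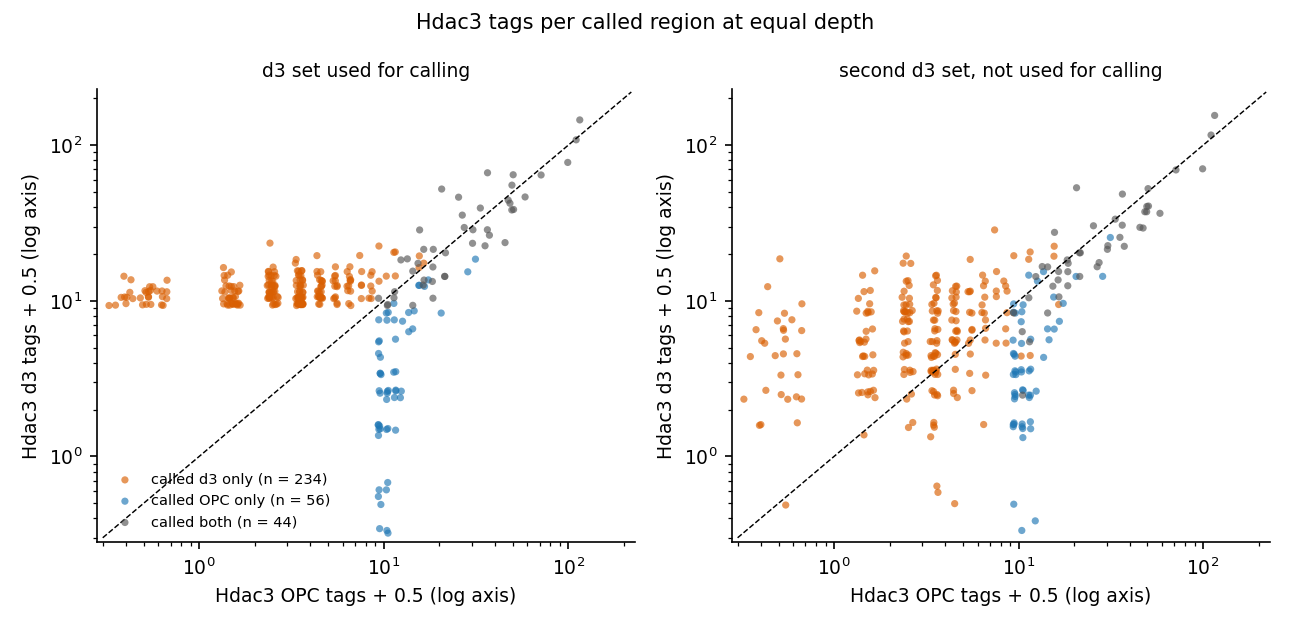
Hdac3 tags per called region in OPCs (horizontal, tags + 0.5, log axis) and at d3 (vertical, tags + 0.5, log axis) at equal depth, 1 point per region, coloured by class, with the d3 tags that called the regions on the left and the second d3 set on the right. The 44 regions of both stages lie along the line of equal tags, and the 234 regions of d3 only, which have a median of 11 tags on the left, move down toward the line on the right, where their median is 5.50.

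The excess at d3 lay in bins of moderate height. Bins with at least 8 tags numbered 1387 in OPCs and 2573 at d3, a ratio of 1.86 (1.74 to 1.98), and 2591 in the second d3 set. At least 10 tags were found in 246 bins in OPCs, in 559 at d3 and in 535 of the second set, a ratio of 2.27 (1.95 to 2.65). At 15 tags or more the numbers were 84 and 92, a ratio of 1.10 (0.806 to 1.49). At 20 tags or more they were 37 and 32, a ratio of 0.865 (0.522 to 1.43). The interval of the ratio included 1 from 15 tags upward, where few bins were left.

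Measured in the second d3 set, the d3 regions were still higher at d3, by less. The 278 regions together held 2840 tags in the second set and 2157 in OPCs, a ratio of 1.32 (1.24 to 1.39). The tags of the OPC library did not choose the 278 regions, but they did sort them into classes. In the 234 regions of d3 only the ratio was 2.15 (1.97 to 2.35), from 1535 and 714 tags. In the 44 regions of both stages it was 0.904 (0.838 to 0.975), from 1305 and 1443 tags, and those regions were chosen to be high in OPCs. Of the 278 regions, 192 had more tags in the second d3 set than in OPCs and 63 had fewer. In that set 38 were past the limits for higher and 1 was past those for lower. No share of all bins measured in the second set is given here, so the 38 are not read as a count of gains. Only 69 of the 278 (24.8%) were called again in the second set, so most single calls did not recur within the same library.

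A comparison in which neither stage chose the tags that were measured gave smaller values. The OPC tags were split into 2 equal portions, and 2 portions of that size, sharing no read, were drawn from the d3 tags. Regions were called in one portion of a stage and tags were counted in the other. The 83 regions called in the d3 portion held 761 tags at d3 and 635 in OPCs, a ratio of 1.20 (1.08 to 1.33). The 60 regions called in the OPC portion held 650 and 647 tags, with an interval of the ratio from 0.900 to 1.12. Over the 119 regions of either portion the ratio was 1.16 (1.05 to 1.28) and the median log2 ratio 0.10, with 4 regions higher and 0 lower. At this depth a change of a single weak region was mostly not detectable. The pooled ratio was above 1 over the 119 regions, but its interval included 1 over the 60 called in the OPC portion.

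At the d3 regions the offset of reads between strands was more often positive than negative, by a modest distance. Few tags per region gave it, so its sign does not show a bound site at a given region. In ChIP-seq, plus-strand 5′ ends gather upstream of a bound site and minus-strand 5′ ends downstream, so the distance from the mean plus-strand end to the mean minus-strand end is positive there. For this measure regions were called from tags that were not moved, which gave 263 regions at d3 and 106 in OPCs, and reads within 500 bp of a region were used where each strand had at least 3. The median distance at the d3 regions was 68.2 bp (quartiles -69.4 to 177 bp). It was positive in 63.6% of the 258 with a value (57.4 to 69.4%). In the second d3 set it was 49.2 bp at the same regions and positive in 63.6% of the 162 with a value (55.7 to 71.0%). OPC tags at the d3 regions gave 7.97 bp, positive in 53.3% of the 90 with a value (42.5 to 63.9%), an interval that overlaps those of d3. At the OPC regions OPC tags gave 25.1 bp, positive in 56.6% (46.2 to 66.5%). With the median position on each strand in place of the mean, the d3 regions gave 92.0 bp and the OPC regions 23.0 bp. This measure was not planned. It was computed before the mean, with the data already seen.

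Read starts around the region centres were described by class. The classes were defined by the calls, so the OPC values at regions of d3 only were low, and those at regions of both stages high, by choice. At the 234 regions of d3 only, the second d3 set held 3.01 tags per 1000000 autosomal tags and kb (RPM per kb) within 250 bp of the centre and 0.662 at 1000 to 1500 bp, 4.54-fold more (4.07 to 5.07). OPC reads there were 1.26 and 0.651 RPM per kb, 1.94-fold (1.70 to 2.21). The flank values of the 2 stages were close. The centre values give no measure of the difference between stages. The ratio of d3 to OPC tags was 1.32 over all 278 d3 regions and 1.20 over those called in a separate portion of the d3 tags. Both of these sets were chosen by d3 tags. At the 60 regions called in the OPC portion the interval of the ratio was 0.900 to 1.12, which includes 1. Over the 119 regions of either portion the ratio was 1.16 (1.05 to 1.28). At the 44 regions of both stages the centre was 23.9-fold over the flank in OPCs (19.5 to 29.5) and 18.4-fold in the second d3 set (15.3 to 22.4). At the 56 regions of OPC only, which OPC tags had chosen, the second d3 set was 3.68-fold over its flank (2.89 to 4.71).

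**Figure D2:**
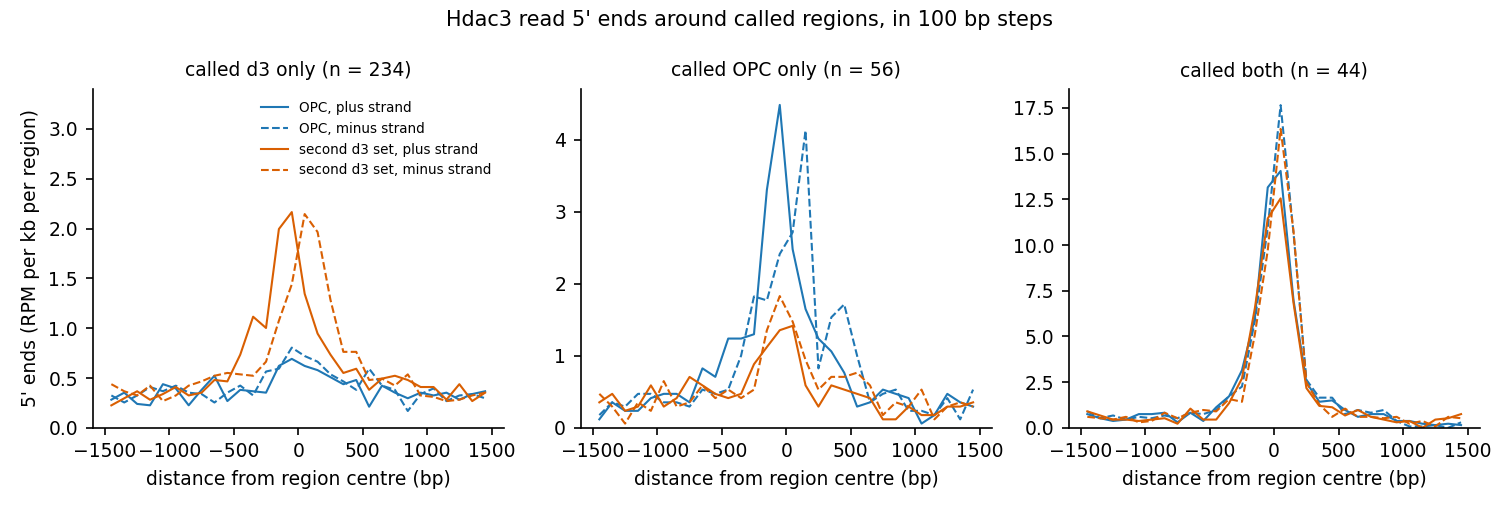
Hdac3 read 5′ ends in RPM per kb per region (vertical) by distance from the region centre in bp (horizontal), averaged in steps of 100 bp, for the 3 classes of regions, with OPC in blue, the second d3 set in orange, plus strand solid and minus strand dashed. At the 234 regions of d3 only the second d3 set rises to a plus-strand summit left of the centre and a minus-strand summit right of it, above the OPC lines, and at the 44 regions of both stages the lines of the 2 stages lie close together. Both follow in part from how OPC tags sorted the classes, and the vertical axes differ between the 3 plots.

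The most enriched regions were shared between the stages. The 10 highest folds of each library made up 12 distinct regions, all 12 were called at both stages, and 1 of them was past the limits for a difference. The highest in OPCs was chr13:36740001-36741000, with 110 tags in OPCs, 108 at d3 and 116 in the second d3 set, or 36.4, 35.7 and 38.3 RPM. It did not differ beyond counting error, at a ratio of 0.982 (0.746 to 1.29). The highest at d3 was chr5:114470001-114471000, with 36 tags in OPCs, 66 at d3 and 48 in the second set. Its ratio was 1.83 (1.20 to 2.83) in the first set and 1.33 (0.848 to 2.11) in the second. On the same chromosome, chr5:2704001-2705000 held 49, 55 and 40 tags, and chr5:155405001-155406000 held 50, 38 and 40. At chr1:145514001-145515000 there were 99, 77 and 70 tags, a ratio of 0.778 (0.570 to 1.06). At chr19:12445001-12446000 there were 50, 64 and 52 tags, a ratio of 1.28 (0.870 to 1.89), and 81.7% of its reads had a score of at least 80. In the remaining 11 of these 12 regions that share was under 80%, down to 27.5% at chr3:144001-145000, where 58, 46 and 36 tags were counted. All 12 were also at least 3.57-fold over background in both p300 libraries, and what part this common enrichment has in the Hdac3 values was not tested.

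Among the strongest regions 1 was higher at d3 in both d3 sets. At chr8:120171001-120172000 there were 20 tags in OPCs, 52 at d3 and 53 in the second set, ratios of 2.60 (1.53 to 4.60) and 2.65 (1.56 to 4.68). In this region 38.4% of reads had a score of at least 80, and p300 had 13 tags in OPCs and 33 at d3, from 4.99 to 9.26 RPM. The p300 RPM was thus also higher at d3, but no counting interval of that difference is given here. No joint rise of the 2 antibodies is read from it, and most reads in this place had low scores.

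Other large increases were at regions called at d3 only, and the second d3 set gave smaller ratios for most of them. The largest, chr3:100431001-100432000, had 2 tags in OPCs, 23 at d3 and 8 in the second set. Its ratio was 11.5 (2.84 to 101) in the set that called it, and its interval ran from 0.798 to 38.7 in the other. At chr8:19813001-19814000 the tags were 3, 18 and 4, and at chr1:180518001-180519000 they were 3, 17 and 5. These fell back close to the OPC value when measured with other reads of the same library. A different result was seen at chr19:10083001-10084000, with 7 tags in OPCs, 19 at d3 and 28 in the second set, a ratio of 2.71 (1.09 to 7.64) in the first set and an interval of 1.71 to 10.8 in the second. At chr3:95698001-95699000 the tags were 9, 22 and 19, and p300 went the other way there, with 11 tags in OPCs and 4 at d3. Of the 10 largest increases among regions with at least 20 tags, all 10 had a ratio above 1 in the second set, and 2 had an interval above 1 there.

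Of the 135 regions higher at d3 in the first set, 130 had more tags than OPCs in the second set, and 37 were past the limits in both sets. The 2 sets share the OPC tags, so their ratios are not independent, and low OPC tags that favoured a region in one favour it in the other. No share of all bins past the limits in both sets is given here, so the 37 are not read as a count of gains. In those 37 regions a median of 91.8% of reads had a score of at least 80, and 11 of them held 0 tags in OPCs. Examples chosen after their values were seen are chr6:112035001-112036000 with 0 tags in OPCs, 11 at d3 and 18 in the second set, and chr7:105311001-105312000 with 2, 13 and 19. At chr2:108040001-108041000 the tags were 1, 14 and 14, and at chr18:75468001-75469000 they were 2, 15 and 17. These are well-scored places with almost no OPC reads and more than 10 reads in each d3 set. The full d3 library, scaled by autosomal reads, put the ratio at 8.25 (2.12 to 70.8) for the chromosome 7 region. That library contains the reads of both sets, and the OPC tags are the same. The value therefore reuses the reads that picked the region and is no separate support.

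Of the 10 largest decreases among regions with at least 20 tags, 1 was past the limits, chr3:98208001-98209000, with 20 tags in OPCs, 8 at d3 and 14 in the second set. Its ratio was 0.400 (0.152 to 0.948), and 0.700 (0.327 to 1.46) in the second set. At chr14:4542001-4544000, a region of 2 bins, the tags were 45, 23 and 29, a ratio of 0.511 (0.295 to 0.863). In 9 of these 10 regions under 60% of reads had a score of at least 80. Of all 27 lower regions, 15 were past the limits in the second d3 set as well and 12 were not. All 27 were below 1 there, with the OPC tags again shared, so the 15 are not read as a count of losses. One of them, chr3:112386001-112387000, held 10 tags in OPCs and 0 in either d3 set, and chr5:148297001-148298000 held 10, 1 and 1. Both were chosen after their values were seen.

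Read scores and p300 signal differed between the classes. The median share of reads with a score of at least 80 was 47.3% in regions of both stages, 88.9% in OPC only and 89.5% in d3 only. At regions of both stages the p300 medians were 5.89-fold in OPCs and 6.60-fold at d3 over the local background. At d3 only regions p300 was at 1.91-fold and 2.02-fold, and at OPC only regions at 1.42-fold and 1.89-fold. The p300 tags took no part in choosing the regions, whereas the Hdac3 medians at d3 only regions, 1.48-fold in OPCs and 3.09-fold in the second d3 set, come from regions chosen on Hdac3, so the 2 antibodies are not compared here.

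Whole chromosomes differed by a few percent. The ratio of d3 to OPC tags was lowest for chromosome 12, 0.960 (0.948 to 0.972), from 54052 and 51889 tags. It was highest for chromosome 11, 1.028 (1.019 to 1.036), from 103247 and 106092 tags. Intervals lay above 1 for 6 chromosomes, below 1 for 5 and included 1 for 9. For p300 the same ratio was 1.031 (1.019 to 1.043) on chromosome 12 and 1.014 (1.005 to 1.023) on chromosome 11, so chromosome 12 went in opposite directions for the 2 antibodies. Regions per 100 Mb at d3 ran from 6.20 on chromosome 2 to 20.3 on chromosome 19, and chromosomes 11 and 20 had 0 regions in OPCs and 9 and 7 at d3.

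**Figure D3:**
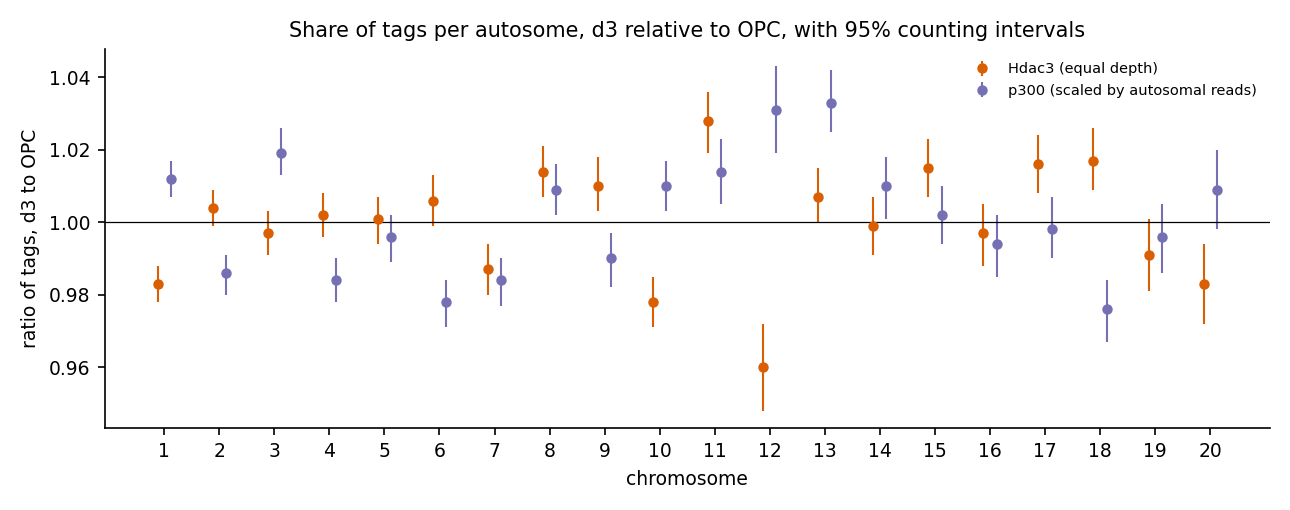
Ratio of tags at d3 to tags in OPCs (vertical) for each autosome (horizontal), for Hdac3 at equal depth and for p300, each point with its 95% counting interval. Hdac3 ratios run from 0.960 on chromosome 12 to 1.028 on chromosome 11.

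Broad differences were looked for in windows of 500 kb, of which 5068 of 5128 held at least 100 tags over the pair. Their median was 626 OPC tags. The SD of the log2 ratio was 0.123, beside 0.0908 from counting error alone, which leaves 0.0834 beyond it. The 5th and 95th percentiles were -0.22 and 0.18, so broad differences were small. With a limit of 25% more tags at the stage that had more, and an interval that excludes 1, 12 windows (0.237%) were higher at d3 and 61 (1.20%) were lower. Counting error alone gives 5.23 windows (0.103%) in each direction. In the second d3 set, which is divided by the same OPC tags that helped choose these windows, 2 of the 12 and 25 of the 61 were past the limits again. That all 12 and all 61 lay on the same side of 1 there is therefore no independent support. The 12 higher windows stood singly, and the 61 lower ones formed 52 runs of at most 2 adjacent windows. With 100 kb windows the counts were 808 higher and 790 lower of 23357. The SD of the log2 ratio was 0.212 there, beside 0.190 from counting error alone, so counting error made up most of that spread. With the full d3 library and 500 kb windows the counts were 5 higher and 47 lower of 5069.

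Lower windows were mostly windows with few well-scored reads. Their median share of reads with a score of at least 80 was 58.4%, against 76.6% in higher windows and 75.7% in all windows. When the windows were ordered by this share in 5 groups, the pooled ratio ran from 0.955 (0.951 to 0.960) in the group of the lowest share to 1.02 (1.02 to 1.03) in the highest. The lowest group held 44 of the 61 lower windows. Among windows with at least 75% of reads at that score, a limit chosen after the data were seen, 9 were lower. Across the 5068 windows the log2 ratio had a Pearson r of 0.333 with this share, 0.252 with log2 p300 tags and 0.111 with the log2 p300 ratio between stages. All of these come from the same windows. The score share comes from the same Hdac3 libraries as the ratio, and the p300 values come from the p300 libraries. The part of the score in the lower windows was not tested.

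**Figure D4:**
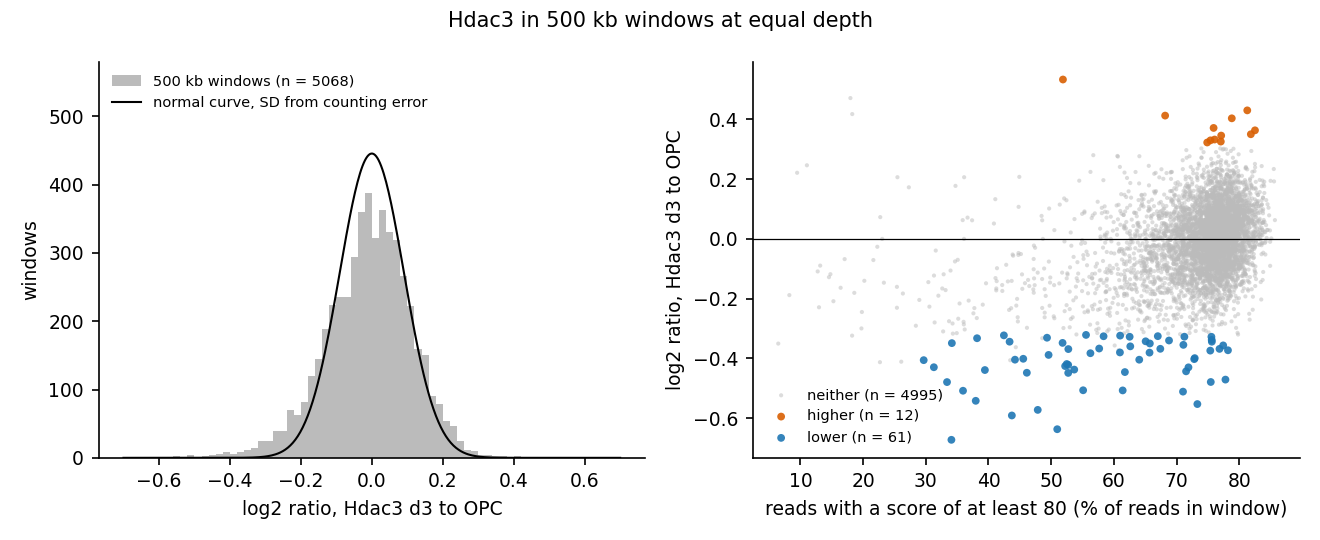
Left, the number of 500 kb windows (vertical) by log2 ratio of Hdac3 at d3 to OPC (horizontal), with the normal curve that counting error alone gives. Right, the log2 ratio (vertical) against the percentage of reads in the window with a score of at least 80 (horizontal), 1 point per window, with the 12 higher and 61 lower windows coloured, and most lower windows at the left.

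Some lower windows were well covered. The lowest of the named windows with over 500 OPC tags, chr7:10500001-11000000, had 945 tags in OPCs, 644 at d3 and 683 in the second set, with 73.3% of its reads at a score of at least 80. Its ratio was 0.681 (0.616 to 0.754), and 0.723 (0.654 to 0.798) in the second set. p300 had a ratio of 1.17 (1.07 to 1.27) in this window, on the other side of 1. The span around it, chr7:10000001-11500000, which was chosen after its values were seen, had 2646, 2066 and 2015 tags, a ratio of 0.781 (0.737 to 0.827), with p300 at 1.15 (1.10 to 1.21). Summed over these 1500 kb Hdac3 was thus lower. In each 100 kb step the ratio was below 1, but several intervals included 1, as at chr7:10200001-10300000 with 0.930 (0.718 to 1.20). Of the 500 kb windows in the span only chr7:10500001-11000000 was past the limits. Just outside it, chr7:9500001-10000000 was also lower, at 0.735 (0.662 to 0.816). At chr10:56500001-57000000 the tags were 980, 703 and 728, a ratio of 0.717 (0.650 to 0.791), with p300 at 0.998 (0.915 to 1.09). A run of 2 lower windows at chr1:95000001-96000000 had 1836 and 1428 tags, a ratio of 0.778 (0.725 to 0.834), with p300 at 1.02 (0.967 to 1.09). The lowest ratio of all, 0.626 (0.469 to 0.831), was at chr1:75000001-75500000, where 131 and 82 tags were counted and 34.1% of reads had a score of at least 80.

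Over all windows the log2 ratio ran from -0.67 to 0.53, so the extreme higher window differed less than the extreme lower one. The highest window, chr15:28000001-28500000, held 71 tags in OPCs, 103 at d3 and 90 in the second set. Its ratios were 1.45 (1.06 to 1.99) and 1.27 (0.918 to 1.76). At chr8:86000001-86500000 the tags were 410, 546 and 496, ratios of 1.33 (1.17 to 1.52) and 1.21 (1.06 to 1.38). At chr11:4500001-5000000 they were 523, 673 and 683, ratios of 1.29 (1.15 to 1.45) and 1.31 (1.16 to 1.47). The last window kept its size in both d3 sets, and the first did not.

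The window chr17:85000001-85500000 had 534 tags in OPCs, 691 at d3 and 682 in the second set, a ratio of 1.29 (1.15 to 1.45), with p300 at 1.56. In steps of 100 kb the highest ratio in this stretch was 1.86 (1.49 to 2.32), at chr17:84900001-85000000, and the next step had 1.42 (1.14 to 1.77). The steps beside them, at chr17:84800001-84900000 and chr17:85100001-85200000, had 1.24 (0.990 to 1.55) and 1.20 (0.973 to 1.47). Farther right, chr17:85200001-85300000 had 1.39 (0.938 to 2.08) and chr17:85400001-85500000 had 1.44 (1.06 to 1.97), against 1.26 (0.842 to 1.90) and 1.01 (0.724 to 1.42) in the second set. The first 4 of these steps make up chr17:84800001-85200000, a block of 400 kb whose bounds were chosen after its values were seen. The block held 594 tags in OPCs, 833 at d3 and 874 in the second set, or 196, 275 and 289 RPM. The interval of the ratio was 1.26 to 1.56, and the second set gave 1.47 (1.32 to 1.64). p300 tags there were 654 in OPCs and 1560 at d3, a scaled ratio of 1.75 (1.59 to 1.91). The neighbouring 800 kb had Hdac3 at 1.07 (0.975 to 1.17), while p300 stood at 1.18 (1.08 to 1.28). No 1 kb bin of the block held more than 17 tags in the full d3 library, so no single bin accounts for the difference in the block.

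**Figure D5:**
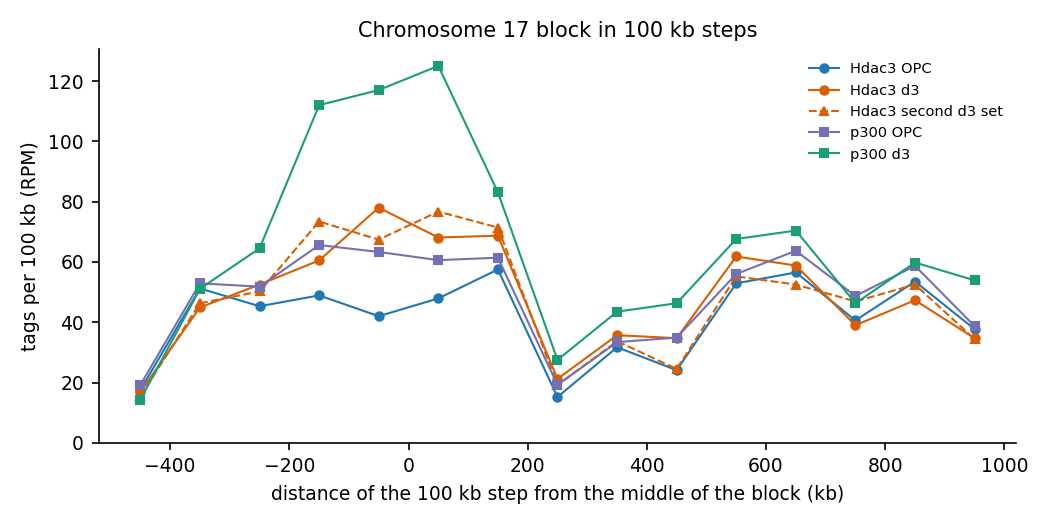
Tags per 100 kb in RPM (vertical) by distance of the step from the middle of the chromosome 17 block in kb (horizontal), for Hdac3 in OPCs, at d3 and in the second d3 set and for p300 at both stages. In the 4 steps of the block Hdac3 is at 42.0 to 57.5 RPM in OPCs and at 60.5 to 78.0 RPM at d3, and p300 at d3 reaches 125 RPM.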

How the data were processed

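The deposited files list aligned ChIP-seq reads on rn4 with position, strand and a score of 8 to 100, as deposited by the authors. Its scale is undocumented. It was used as a limit on how well a read was placed. Per the submitters' processing notes, the build was rn4 and MACS 1.4.0 was used, in a role they do not state. Aligner and filters: not given in the sources used here. Within a library 0 same-strand 5′ ends were repeated, which limits the tags a narrow site can hold. Most reads were 35 bp long.

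Tags were counted in 1 kb bins and 500 kb windows with python 3.11.15, numpy 2.4.6 and scipy 1.17.1. Background for a call was the highest of the genome mean and the means over 10 kb and 50 kb around the bin, with the bin left out. Thinning used seed 1. RPM is tags per 1000000 autosomal tags of score at least 80. Ratios have exact conditional binomial intervals, shares have Clopper-Pearson intervals, and log2 ratios of regions used a pseudocount of 0.5. Reads carry no molecular identifiers. Intervals cover counting error only, because each stage had 1 library. Scripts were tested on simulated data. No input library was used here.

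Named regions were the 10 highest folds per library, the 10 largest increases and decreases among regions of at least 20 tags, and the 10 highest and lowest windows with the longest runs. Strand distances with the median position per strand and the windows with at least 75% of well-scored reads were added after the data were seen. Comparisons and lists were chosen with earlier results of these data known. Fixed gene lists were not run, because no rn4 gene annotation was used here. Alternatives were other score limits, bin and window sizes, Poisson levels, backgrounds, tag shifts, thinning seeds, scalings and fold limits, and calls in separate tags.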

Additional observations from a re-analysis of the deposited data

How the results depend on the processing

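Of 131 values recomputed under other settings, 81 stayed close to the reported value, 49 moved and 1 reversed. With all reads the median log2 ratio over regions was -0.023 against 1.44, with 413 OPC and 498 d3 regions (ratio 1.21), 56 lower regions, 4 higher windows and a window SD of 0.115. A score of at least 50 gave 191 OPC regions, a ratio of 1.92, a median of 0.71 and an SD of 0.117, and one of at least 95 an SD of 0.126. The number of regions from d3 stayed above that from OPCs in each setting run. Bins of 500 bp gave a median of 1.585, and bins of 2 kb gave 0.96 and a ratio of 1.99. A Poisson level of 1e-04 gave 339 and 720 regions, a ratio of 2.12, 314 higher and 127 lower, and 1e-06 gave 62 and 144, with 72 higher and 8 lower. Background from the genome mean alone gave 425 and 988 regions, 359 higher, 124 lower and a median of 1.249. The full d3 library gave a median of 0.95, 5 higher windows and an SD of 0.114. Calls and ratios from separate tags gave 4 higher, 0 lower and a median of 0.10. Windows of 100 kb gave 808 higher and 790 lower of 23357, with an SD of 0.212 beside 0.190 from counting error. Those of 1 Mb gave 1 higher and 20 lower of 2560, with an SD of 0.100 beside 0.0653. At any fold 311 windows were higher and 382 lower, and at 1.5-fold 0 and 3. The third thinning seed gave 6 higher windows. Windows of at least 500 tags gave 35 lower and an SD of 0.116, and those with at least 75% well-scored reads, chosen after seeing the data, 9 lower and 0.106. The d3 strand distance ran from 68.2 bp (tags not moved) to 92.1 bp (tags moved 100 bp). The causes of these shifts were not tested. No window had at least 90% well-scored reads, so that alternative gave no value. Leaving out a replicate was not run, because each group holds 1 library. No paired analysis was possible because each group holds 1 library. Depth limits single regions: at 1.18 tags per bin a region of 10 tags has a wide interval.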
